A study of Homo sapiens with 5 samples.

Results

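To describe which genes of the intestinal lineage program are expressed in HCT116 cells, and how they stood after ELK4 knockdown, 10 genes were looked up by symbol among the 20026 genes with expression values. They comprise the transcription factors CDX1, CDX2 and HNF4A, the structural markers VIL1 and KRT20, and LGALS4, CEACAM5, CEACAM6, MUC13 and TFF3, which encode lectin, cell surface, mucin and trefoil proteins of the colonic epithelium. All 10 were found. HCT116 is an established human colorectal carcinoma cell line. RNA-seq was performed on 2 samples carrying the pLKO.1 vector (controls) and 3 samples with ELK4 knockdown by separate hairpins, named shELK4_1, shELK4_2 and shELK4_3. All were stable lines of the same cells, made with lentivirus and selected with puromycin, and with 1 sample per hairpin a hairpin and its sample cannot be told apart. Carrying a hairpin at all and having less ELK4 cannot be told apart either, since the controls carried the vector. ELK4 is an ETS family transcription factor that responds to MAPK signaling. The spread within the shELK4 group is one between lines with different hairpins, while nothing in the labels says that the pLKO.1 samples came from separate cultures, so the spread between those may be technical.

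In the intestine, the caudal homeobox factors CDX1 and CDX2 set and maintain intestinal identity, and together with the nuclear receptor HNF4A they activate genes of the mature epithelium. Their known targets include the gene for villin (VIL1), an actin-bundling protein of the brush border, and that for keratin 20 (KRT20), an intermediate filament protein of surface colonocytes. CEACAM5, MUC13 and LGALS4 are abundant in normal and well-differentiated malignant colon epithelium, and TFF3 is secreted by goblet cells.

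Expression was given as FPKM, fragment counts divided by transcript length and by the mapped reads of the sample, so that levels can be set side by side between genes. ELK4, the targeted gene, had 8.62 and 7.60 FPKM with pLKO.1, against 3.14, 2.82 and 2.44 FPKM in shELK4_1, shELK4_2 and shELK4_3. Its log2 fold change was −1.26 (SE, standard error, 0.12; limma adjusted p = 0.029), on the log2(FPKM + 1) scale used for every fold change here, where changes of weakly expressed genes are understated. The FPKM totals of the 5 samples ranged from 309139 to 319870. Read counts are not given with FPKM values, so the depth is unknown and no counting error can be attached. The 25 genes that every cell uses and that were looked up as a check (GAPDH and RPL3 among them) were all above 0, at 12.6 FPKM or more in every sample.

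HCT116 cells expressed few of the 10 genes at a level that could be tested. Only CDX2, HNF4A and KRT20 reached the limit for testing, 1 FPKM or more in 2 or more samples, which 10780 of all genes reached. MUC13, CEACAM6, LGALS4, VIL1 and CEACAM5 had values above 0 in at least 1 sample but stayed below 1 FPKM throughout. CDX1 and TFF3 were listed at 0 in all 5 samples, as were 3803 of the 20026 genes (19.0%).

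Promoter sequences of the tested genes are shown first, since CDX proteins bind AT-rich words and KRT20 is a known CDX target, while ETS factors such as ELK4 bind a GGAA core. The 250 bases before the transcription start (RefSeq, GRCh38.p14) are printed 5′ to 3′ on the strand of the gene, with the CDX-type word TTTAT, or its reverse complement ATAAA, in capitals. The table held an entry for 7 of the 10 genes, and none for CDX1, VIL1 and TFF3. The KRT20 entry is chr17:40885243-40885492 (minus strand), that of CDX2 is chr13:27969316-27969565 (minus strand), and HNF4A has 2 entries on the plus strand, chr20:44355449-44355698 and chr20:44400989-44401238.
KRT20: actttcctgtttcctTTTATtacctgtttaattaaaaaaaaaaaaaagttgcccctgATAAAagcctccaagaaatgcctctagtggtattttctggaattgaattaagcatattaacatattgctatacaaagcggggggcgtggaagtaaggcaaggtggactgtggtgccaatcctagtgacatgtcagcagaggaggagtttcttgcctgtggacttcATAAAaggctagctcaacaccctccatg
CDX2: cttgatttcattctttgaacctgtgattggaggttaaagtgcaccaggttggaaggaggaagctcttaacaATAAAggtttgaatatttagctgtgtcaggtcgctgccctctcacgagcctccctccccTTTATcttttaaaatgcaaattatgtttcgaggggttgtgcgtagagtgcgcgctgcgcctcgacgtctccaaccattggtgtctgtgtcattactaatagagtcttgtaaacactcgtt
HNF4A, first entry: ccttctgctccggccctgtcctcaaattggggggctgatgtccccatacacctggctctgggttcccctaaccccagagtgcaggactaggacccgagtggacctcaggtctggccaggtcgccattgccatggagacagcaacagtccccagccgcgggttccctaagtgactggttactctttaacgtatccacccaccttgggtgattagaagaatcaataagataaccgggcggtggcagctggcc
HNF4A, second entry: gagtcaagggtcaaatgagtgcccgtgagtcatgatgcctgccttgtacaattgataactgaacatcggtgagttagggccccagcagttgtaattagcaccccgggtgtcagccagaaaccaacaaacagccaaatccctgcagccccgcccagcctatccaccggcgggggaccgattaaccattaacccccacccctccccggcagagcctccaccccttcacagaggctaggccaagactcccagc

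The word TTTAT, searched on both strands, occurred 3 times before KRT20, starting 235, 193 and 28 bases before the start. The last of these lies where a TATA box usually does. CDX2 had 2 matches, 179 and 120 bases before the start, and HNF4A none in either entry. Of the 35116 promoter windows of all genes with the same length, 32.7% held the word, and of the 8 windows of these genes 4 did, with 1 match each for CEACAM5 and CEACAM6. The ETS word CCGGAA was found in none of the 8 windows (0 matches), against 14.5% of all windows. The shorter GGAA core was not counted. The printed KRT20 and CDX2 windows do hold it, and the first HNF4A window holds its reverse complement TTCC. A match describes letters and not a bound site, and the absence of one says nothing of sites outside these windows.

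CDX2 (GRCh38 chromosome 13, 27960918 to 27969315, 3 exons, minus strand) was the most highly expressed of the 10 genes. It had 4.12 and 5.09 FPKM with pLKO.1, against 3.74, 3.51 and 3.54 FPKM in shELK4_1, shELK4_2 and shELK4_3. All knockdown samples were below both controls, yet the lower control stood closer to the knockdown samples than to the other control. The mean was 4.61 ± 0.688 (SD, n = 2) with pLKO.1 and 3.60 ± 0.128 (SD, n = 3) with shELK4, 78.1% of the control level. On the log2 scale CDX2 differed by −0.28 (SE 0.11, 95% interval −0.54 to −0.02), and it did not pass the test over all genes (limma adjusted p = 0.282, unadjusted p = 0.0389). Without pLKO.1 sample 2, the higher control, the log2 fold change was −0.16, in a fit where the lone control was assumed to vary like the shELK4 samples.

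HNF4A (chromosome 20, 44355699 to 44432845, 10 exons) came next, with 1.51 and 1.81 FPKM with pLKO.1, against 1.66, 1.38 and 1.5 FPKM in shELK4_1, shELK4_2 and shELK4_3. The groups overlapped. The mean was 1.66 ± 0.208 FPKM (SD, n = 2) with pLKO.1 and 1.51 ± 0.141 (SD, n = 3) with shELK4, and the log2 fold change of −0.08 (SE 0.11, limma adjusted p = 0.739) had a 95% interval from −0.33 to 0.17. Values are given per gene, so transcripts from different start sites cannot be told apart. In every sample, HNF4A was below CDX2 and above KRT20.

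KRT20 (chromosome 17, 40875889 to 40885242, 8 exons, minus strand) showed the largest difference among the 3 tested genes. It had 1.07 and 1.23 FPKM with pLKO.1, against 0.885, 0.400 and 0.277 FPKM in shELK4_1, shELK4_2 and shELK4_3. The 3 knockdown samples lay below both controls, shELK4_1 close to them and shELK4_2 and shELK4_3 far below. The mean was 1.15 ± 0.112 FPKM (SD, n = 2) with pLKO.1 and 0.520 ± 0.321 (SD, n = 3) with shELK4, 45.1% of the control level.
On the log2 scale KRT20 differed by −0.52 (SE 0.17, 95% interval −0.94 to −0.10), with an adjusted p of 0.229 and an unadjusted p of 0.0221 from limma, so that the difference did not pass the test over all genes. With a pseudocount of 0.1 in place of 1, the log2 fold change was −1.13 (limma adjusted p = 0.255). KRT20 reached the limit for testing through the 2 controls alone, so a gene entered in this way had to be lower in the knockdown samples. KRT20 is also among the genes that the study lists as regulated in these samples, and its direction is therefore not independent evidence. In that list the adjusted p of KRT20 was above the limit that the study states. In bulk RNA, fewer cells expressing keratin 20 and less of its RNA per cell cannot be told apart.

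**Figure D1:**
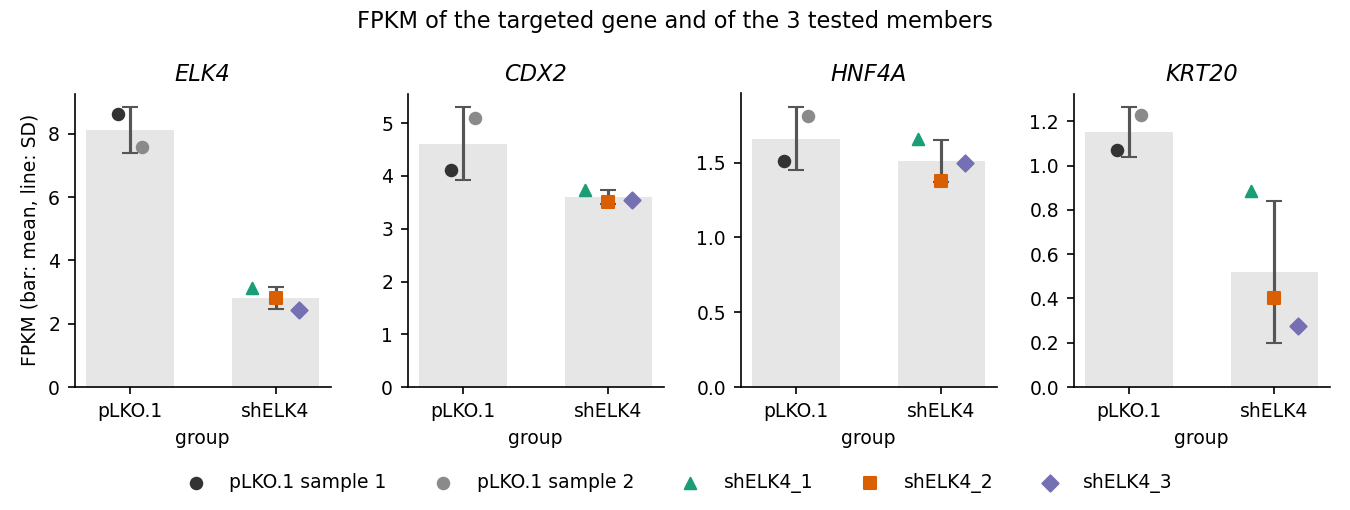
FPKM of ELK4, CDX2, HNF4A and KRT20 in each group (x axis), with points for single samples, bars for the mean and lines for the SD (n = 2 pLKO.1, n = 3 shELK4); each panel has its own linear axis from 0. CDX2 spans 3.51 to 3.74 FPKM in the knockdown samples, while KRT20 spreads from 0.277 to 0.885.

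Among the 3 tested genes, 0 had an adjusted p under 0.05 from limma, where 0.167% of all tested genes did. An unadjusted p under 0.05 with a lower level after knockdown was found for 2 of the 3, CDX2 and KRT20, against 8.14% of all tested genes. The same 2 had all shELK4 samples below both pLKO.1 samples, as had 21.0% of all tested genes. Since KRT20 had to be lower to be tested as it was, no support is drawn from these counts over 3 genes. Leaving out shELK4_2 or shELK4_3 raised the unadjusted p of both above 0.05 (KRT20 to 0.0565 and 0.0580, CDX2 to 0.0625 and 0.0742, from limma), and without either control KRT20 fell below the limit for testing.

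The hairpins differed in their distance from the controls. For KRT20, the difference from the mean of the controls on the log2(FPKM + 1) scale amounted to −0.19, −0.62 and −0.75 with shELK4_1, shELK4_2 and shELK4_3, while the controls differed from each other by 0.11. The values of shELK4_2 and shELK4_3 passed a 1.5-fold limit. Among all tested genes, 1.97% were at least 1.5-fold below the controls in shELK4_1, 3.89% in shELK4_2 and 2.47% in shELK4_3.
For CDX2, the differences were −0.24, −0.31 and −0.30 in the same order, a range of 0.07 between hairpins beside a gap of 0.25 between the controls. The 3 hairpins were thus close to each other for CDX2 but not for KRT20, whose range between hairpins was 0.56. For HNF4A, the differences were 0.00, −0.16 and −0.09, the largest about as wide as the gap of 0.16 between the controls. The ELK4 level, by comparison, was lower than the controls by a similar amount in all 3, with differences of −1.14, −1.25 and −1.40. With 1 sample per hairpin, none of these differences between hairpins has a replicate check.

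**Figure D2:**
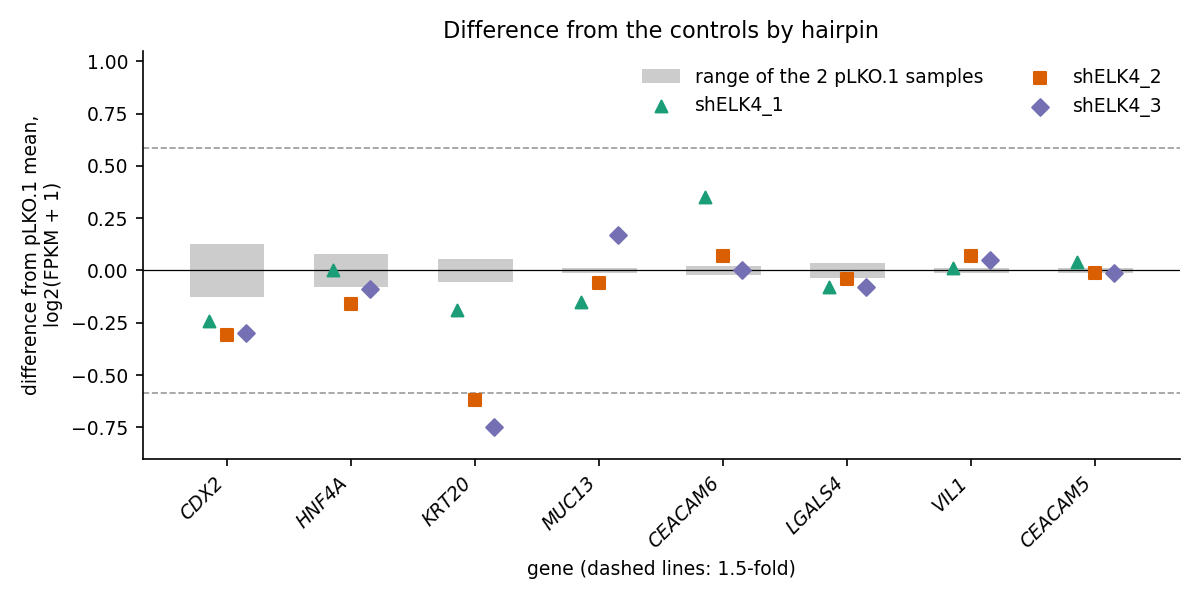
Difference of each shELK4 sample from the mean of the 2 pLKO.1 samples in log2(FPKM + 1) (y axis) for the 8 genes above 0 (x axis), with grey boxes for the range of the controls and dashed lines at 1.5-fold. KRT20 in shELK4_2 (−0.62) and shELK4_3 (−0.75) lies beyond the lower line, and the points of CDX2 sit together just under the grey box.

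MUC13 (chromosome 3, 124905442 to 124953819), a transmembrane mucin of the apical surface, was measurable but low, with 0.369 and 0.392 FPKM with pLKO.1, against 0.241, 0.328 and 0.548 FPKM in shELK4_1, shELK4_2 and shELK4_3. The knockdown samples lay on both sides of the controls. Its range overlapped that of KRT20, so that the order of the 2 genes was not the same in every sample. The mean was 0.381 ± 0.0162 FPKM (SD, n = 2) with pLKO.1 and 0.373 ± 0.158 (SD, n = 3) with shELK4.

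The carcinoembryonic antigen genes were close to 0. CEACAM6 (chromosome 19, 41750977 to 41772211), a cell surface adhesion protein, was listed at 0 and 0.0307 FPKM in the controls and at 0.292, 0.0627 and 0.0155 FPKM in shELK4_1, shELK4_2 and shELK4_3. Its highest value was that of shELK4_1 alone. CEACAM5 (chromosome 19, 41708585 to 41730433), the clinical tumor marker CEA, did not exceed 0.0301 FPKM, its value in shELK4_1, and was listed at 0 in 3 of the 5 samples. These genes have close copies. Of the 50-base words in the canonical transcript, 8.25% for CEACAM6 and 6.51% for CEACAM5 also occur in transcripts of other genes, so their reads could be split. For both, the other genes include CEACAM1, CEACAM3 and CEACAM8. For CEACAM5 they also include many genes outside this family, such as ANAPC5 and SF3B3. CEACAM1, a relative made by many epithelia, had 0.374 and 0.430 FPKM with pLKO.1, against 0.314, 0.338 and 0.189 FPKM in the knockdown samples.

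VIL1 (chromosome 2, 218419121 to 218453295) was listed at 0.0124 and 0 FPKM in the controls and at 0.0126, 0.0540 and 0.0402 FPKM in the knockdown samples. Exons of USP37 on the opposite strand cover 44.2% of the exonic bases of VIL1, so that these small values could hold reads of either gene if strand was not kept, which the sources used here do not state. LGALS4 (chromosome 19, 38801671 to 38812945), the gene for galectin-4, had 0.0827 and 0.0294 FPKM with pLKO.1, against 0, 0.0298 and 0 FPKM in the knockdown samples. At such values neither gene can be compared between groups, and no fold change is given. For CDX2, KRT20, MUC13, CDX1, TFF3 and LGALS4, no exon of another annotated gene overlaps (0% of exonic bases), and none of their 50-base words occurs elsewhere.

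CDX1 (chromosome 5, 150166778 to 150184558), the paralog of CDX2, and TFF3 (chromosome 21, 42311667 to 42315409), the goblet cell trefoil factor, were at 0 in each control and each knockdown sample. With every value at 0, the groups could not be compared for either gene.

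**Figure D3:**
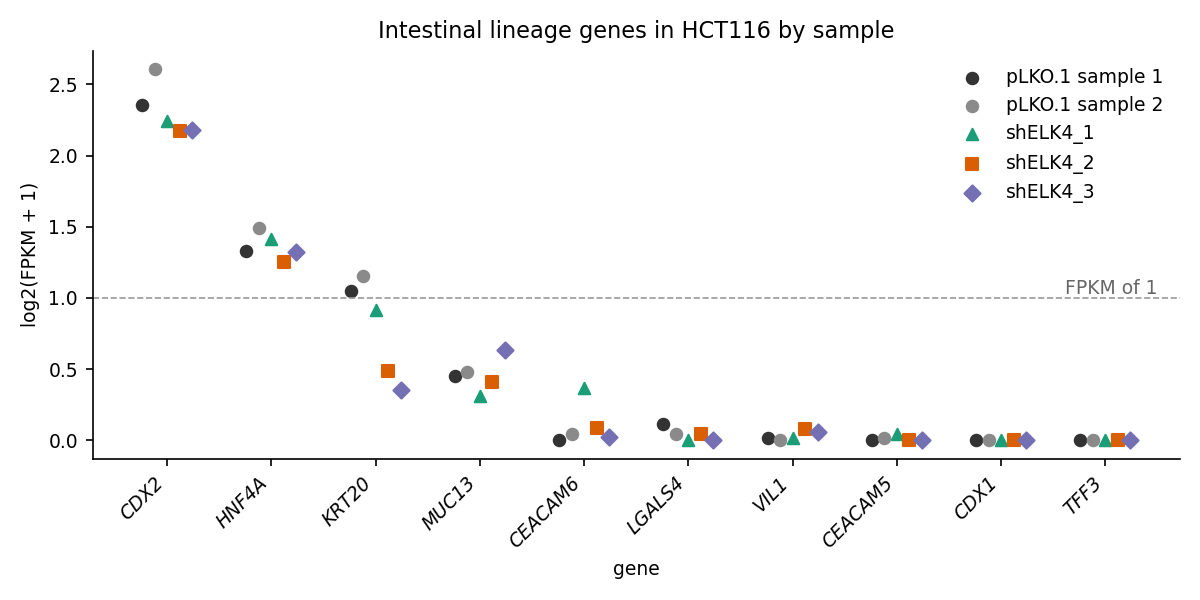
Level of each of the 10 genes (x axis, ordered by mean) in the 5 samples as log2(FPKM + 1) (y axis), with the dashed line at an FPKM of 1. CDX2 and HNF4A lie above the line in every sample, KRT20 crosses it between groups, and the other genes lie below it, CDX1 and TFF3 at 0.

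Among all tested genes, the patterns most like that of KRT20 over the 5 samples were those of MLF2 (Pearson r = 0.9980), PPP1R2 (0.9977) and IP6K2 (0.9972). For CDX2 they were YKT6 (0.9972), POLR2I (0.9964) and PPP4R2 (0.9961). With 5 samples in 2 groups such values are common, and 419 other genes reached an r of at least 0.9 with KRT20 and 239 with CDX2.

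Markers of the colon epithelium were unequally expressed. EPCAM, the epithelial cell adhesion molecule, had 118 to 166 FPKM, whereas the colon markers GPA33 and CDH17, the latter a further CDX2 target, stayed at or below 0.109 and 0.0481 FPKM. The simple keratins were far more abundant than KRT20. KRT8 had 1071 and 1072 FPKM with pLKO.1, against 792, 583 and 670 FPKM in shELK4_1, shELK4_2 and shELK4_3, and KRT18, its partner, had a log2 fold change of −1.10 (SE 0.23, limma adjusted p = 0.117). Of the 8 colon epithelium markers, 6 were tested, 3 of them (KRT8, KRT18 and KRT19) had a lower level with an unadjusted p under 0.05 from limma, against 8.14% of all tested genes, and none had an adjusted p under 0.05 (0 genes). The median log2 fold change of the 6 tested was −0.501, against −0.00859 over all tested genes. GPA33 and CDH17 were the 2 not tested. All shELK4 samples were below both controls for 4 of the 6, as for 21.0% of all tested genes. For EPCAM and CDH1 the groups overlapped.

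Of 19 other transcription factors of the intestinal epithelium, 12 were tested and 0 had an adjusted p under 0.05 from limma. An unadjusted p under 0.05 was found for 4 with a higher level (KLF4, PPARG, KLF5 and TCF7L2) and for 1 with a lower level, FOXA1, where 8.08% of all tested genes were higher and 8.14% lower at the same limit. The median log2 fold change of the list was 0.0837. KLF4, a factor of terminal epithelial differentiation, had 9.67 and 10.6 FPKM with pLKO.1, against 23.3, 15 and 16.2 FPKM in shELK4_1, shELK4_2 and shELK4_3. Its log2 fold change was 0.76 (SE 0.18, limma adjusted p = 0.138), the largest of this list, and every knockdown sample was above both controls. The same held for 2061 of the 10780 tested genes. HNF4G, the paralog of HNF4A, had 1.29 ± 0.0846 FPKM (SD, n = 2) and 1.13 ± 0.291 (SD, n = 3), with overlapping groups.

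Of 39 genes of absorptive colonocytes and the brush border, 12 were tested, 8 were listed at 0 in every sample, and 0 had an adjusted p under 0.05 from limma. EPCAM, CLDN7, CDH17 and GPA33 are in this list and also among the colon epithelium markers above. An unadjusted p under 0.05 was found for DPP4, SLC26A2 and SLC9A3, which were higher, and for CA2, which was lower, beside the shares of 8.08% and 8.14% of all tested genes. The median of this list was −0.100 on the log2 scale. CA2, a carbonic anhydrase of colonocytes, had 17.8 and 18.5 FPKM with pLKO.1, against 6.32, 8.36 and 13.6 FPKM in shELK4_1, shELK4_2 and shELK4_3 (log2 fold change −0.94, SE 0.27, limma adjusted p = 0.182). DPP4, a brush border peptidase, went the other way, with 1.63 and 1.28 FPKM with pLKO.1, against 4.87, 4.28 and 2.23 FPKM in the knockdown samples (log2 fold change 0.92, SE 0.25, limma adjusted p = 0.168). For both genes shELK4_3 was the knockdown sample nearest to the controls, whereas for KRT20 it was the farthest. The study lists DPP4 and KRT18 as regulated in these samples too. There KRT18 had an adjusted p under the limit of 0.05 in the study's methods. DPP4 had one above it, but an unadjusted p under 0.05.

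Secretory cell genes were not tested, since none of 22 goblet cell and 10 enteroendocrine genes reached the limit (0 tested). The highest goblet cell genes were MUC1 (0.213 to 0.575 FPKM) and FCGBP (0.288 to 0.494 FPKM), and TFF1 and TFF2, the relatives of TFF3, were listed at 0 in all samples. Among the enteroendocrine genes, SYP, a synaptic vesicle protein, was the highest, at 2.16 FPKM in shELK4_2 and at 0.742 FPKM or less elsewhere. Markers of fibroblasts, endothelium, muscle and leukocytes summed to 12.5 and 13.7 FPKM in the controls and to 16.7, 21.2 and 12.7 FPKM in the knockdown samples, with 4 of 15 tested. Most of this was CD68 (6.04 and 7.25 FPKM with pLKO.1, then 10.1, 14.1 and 5.23 FPKM) and COL1A1, and CDH5, CD3E and MS4A1 were at 0 throughout. All samples were of the HCT116 line, so these are levels of the genes within that line. Whether they bear on the values of CDX2 and KRT20 was not tested.

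**Figure D4:**
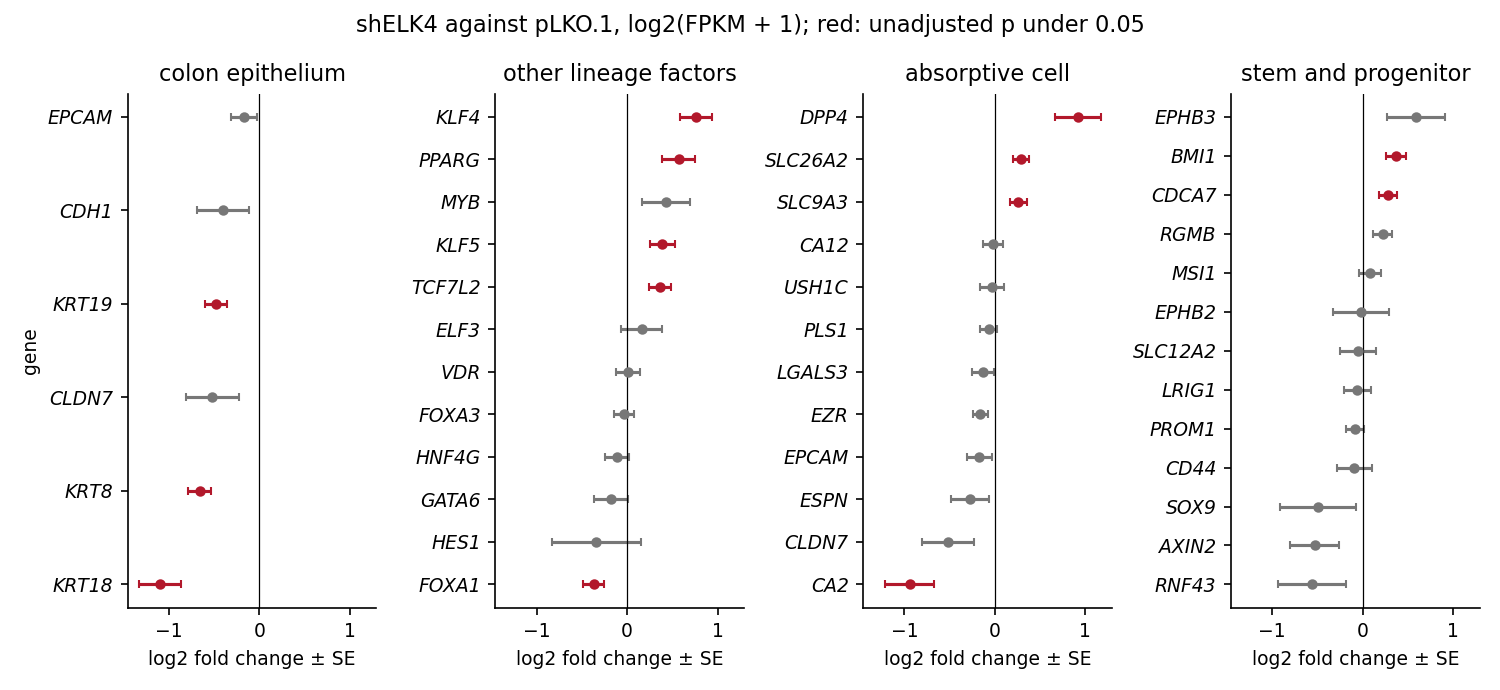
Log2 fold change of shELK4 against pLKO.1 on the log2(FPKM + 1) scale (x axis, point) with its SE (line) for the tested genes of 4 lists (y axis), in red where the unadjusted p was under 0.05. KRT18 (−1.10) and CA2 (−0.94) lie farthest left, DPP4 (0.92) and KLF4 (0.76) farthest right. EPCAM and CLDN7 appear under both colon epithelium and absorptive cell.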

How the data were processed

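The authors purified poly(A) RNA, sequenced it on an Illumina HiSeq instrument and deposited 1 table per sample of FPKM values per gene, calculated by Cufflinks and scaled to the mapped reads of that sample. The submitters' processing notes name Trimmomatic 0.36, HISAT2 2.0.5, Cufflinks 2.2.1 and HTSeq 0.9.1. The genome build, the annotation and the strandedness are not given in the sources used here. Samples were grouped by their titles. The tables were joined on gene symbol, and 4 entries with repeated names were dropped, which left 20026 genes. The 10780 genes that reached 1 FPKM in 2 or more samples entered a fit of log2(FPKM + 1) by limma 3.58.1 in R 4.3.3 (group as the only term, trended empirical Bayes), with Benjamini-Hochberg adjustment over all of them. The fit was tested on simulated data, with changes placed only in genes expressed more highly than any of the 10 genes, so that this test does not cover them. For single hairpins, the difference from the mean of the controls was taken without a test. The 10 genes and the lists of other genes were chosen with earlier results of these data known. From the list of transcription factors, 1 gene was taken out after the analysis and is not reported here.

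A rule for naming picked from each list the genes with an adjusted p under 0.05. It also picked up to 4 genes with the largest fold change at an unadjusted p under 0.05, and the 2 with the highest mean FPKM. Relatives of the 10 genes could be added. Of the genes picked, EZR and TPH1 are not described. GPA33, CDH17, CLDN7, CDH1, LGR5, ASCL2, CDH5, CD3E and MS4A1 are named outside the rule. Alternatives were a pseudocount of 0.1, no FPKM limit, the replicate number as a block, quantile normalization, a weight for each group, scaling by median of ratios, and each sample left out. A limit on the mean FPKM over all samples (0.5) was added after seeing the data. Gene positions, overlapping exons and shared words are from GENCODE release 44 on GRCh38, matched by symbol, and may differ from the annotation the authors used. Promoters are from RefSeq (GRCh38.p14). Python 3.11.15, pandas 2.3.3 and matplotlib 3.10.9 were used.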

Additional observations from a re-analysis of the deposited data

How the results depend on the processing

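CDX2, HNF4A and KRT20 had an adjusted p over 0.05 in all 34 alternative fits that could be made for them (adjusted p from 0.0831 to 1 from limma), the lowest for KRT20 with a weight for each group. The level stayed lower in these fits, except that HNF4A showed no difference without pLKO.1 sample 2 (log2 fold change 0.00, SE 0.16). KRT20 could not be tested without either control. The number with an unadjusted p under 0.05 from limma, 2 of 3, was 1 of 8 (KRT20) with no FPKM limit. It was 1 of 3 (KRT20) with the replicate number as a block and with a weight for each group. With each shELK4 sample left out it was 0 to 2 of 3. Over all genes, the 18 with an adjusted p under 0.05 from limma became 0 with no FPKM limit (2270 at an unadjusted p under 0.05), 413 with a weight for each group, and 0 to 95 with each sample left out (571 to 2441 unadjusted), highest without shELK4_2; the causes were not tested. The replicate block gave 22 such genes, and log2 fold changes of −0.27 for CDX2 and −0.41 for KRT20 (adjusted p = 0.379 and 0.287 from limma). Only the shELK4 group has a sample of number 3, so shELK4_3 did not contribute to the group difference in this fit. The same 2 fold changes were found with shELK4_3 left out. The samples share only a number, and their deviations from the group means correlated by 0.078 for number 1 and 0.023 for number 2. The 2 hairpin differences past 1.5-fold were 1 to 2 with a single control. With a mean FPKM of at least 0.5 as the limit, chosen after seeing the data, KRT20 had an adjusted p of 0.227 and CDX2 of 0.288 from limma. Depth is unknown, so differences below 1 FPKM, as for MUC13, CEACAM6, LGALS4 and VIL1, carry no counting error and were not judged.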

Other observations

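Genes of crypt base stem and progenitor cells formed an 18-gene list of which 13 were tested, with a median log2 fold change of −0.0521. BMI1 and CDCA7 were higher with an unadjusted p under 0.05 (log2 fold changes of 0.37 and 0.28, standard errors 0.11 and 0.10, adjusted p = 0.201 and 0.233 from limma), where 8.08% of all tested genes were higher at that limit, and 0 genes had an adjusted p under 0.05 from limma. The levels within this list were unequal. CD44 and BMI1 had the highest means over all samples, 33.4 and 30.7 FPKM. LGR5, a receptor of crypt base stem cells, did not exceed 0.0377 FPKM, and ASCL2, a stem cell factor, was listed at 0 in every sample.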
